A study of Mus musculus with 55 samples.

Results

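The genes described here encode 39 synaptic and axonal adhesion molecules, the cell-surface proteins with which neurons hold on to each other and to their targets. They were chosen by name, and each was found among the 22800 gene symbols of the count table. Their transcripts were read in single mouse pyramidal neurons of the prefrontal cortex, from cytosol drawn into a patch pipette. The cells fell into 4 groups. The 6 KO D1 cells and 7 KO D2 cells came from Fmr1-/y mice, in which the X-linked gene for the RNA-binding protein FMRP is knocked out, a model of fragile X syndrome and autism spectrum disorder. The 15 WT D1 cells and 26 WT D2 cells came from mice labelled as having no knockout and no strain is given. D1 and D2 are the labels' names for 2 kinds of pyramidal cell, after dopamine receptor types; the sources used here do not say how they were told apart. The ages were 31 and 32 days for KO D1 cells, 32 days for KO D2 cells, 28 to 34 days for WT D1 cells and 29 to 35 days for WT D2 cells. Genotype and age can therefore be told apart only in part. All D1 cells carry the side label 2 and all D2 cells the side label 1, so kind and side cannot be told apart.

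At a synapse, neurexins and receptor tyrosine phosphatases on the axon terminal bind partners across the cleft, among them neuroligins, LRRTM proteins, Slitrk proteins and the interleukin 1 receptor accessory protein-like receptors. Along the axon, contactins with their Cntnap partners and the L1 family organise the initial segment, the nodes of Ranvier and their flanks, and guide growing axons. NCAM, SynCAM and cadherin proteins bind like or related molecules on both sides of a contact. Several of these transcripts are known targets of FMRP, which represses the translation of many messages in dendrites.

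Total counts ranged from 260943 to 10673072 reads per cell, and the cells differed widely in how many genes they showed. At least 4000 genes had a read in 6 of 6 KO D1 cells, 6 of 7 KO D2 cells, 9 of 15 WT D1 cells and 13 of 26 WT D2 cells; these 34 cells are called gene-rich and the other 20 gene-poor. Fmr1 had 0 reads in each of the 13 knockout cells, and a read in 8 of 15 WT D1 and 13 of 26 WT D2 cells. Drd1 was read in 0 of 6 KO D1, 3 of 7 KO D2, 4 of 15 WT D1 and 2 of 26 WT D2 cells, and Drd2 in 0 of 54, so the receptor genes that name the kinds were mostly absent. All 10 general pyramidal markers had a read in every group, with median summed levels of 2629 CPM (reads per 1e6 reads of the cell) in KO D1, 3751 CPM in KO D2, 3465 CPM in WT D1 and 2882 CPM in WT D2 cells. Interneuron markers had median summed levels of 0.428 CPM in KO D1, 44.1 CPM in KO D2, 0.398 CPM in WT D1 and 20.9 CPM in WT D2 cells. Their highest cells were at 135, 323, 481 and 841 CPM in the same order. Microglial markers reached 2487 CPM in KO D1, 3580 CPM in KO D2, 10590 CPM in WT D1 and 5971 CPM in WT D2 cells. Astrocyte markers, with Gfap and Aldh1l1 at 0 in KO D1 cells, reached 1547 CPM in KO D1, 2260 CPM in KO D2, 15370 CPM in WT D1 and 13720 CPM in WT D2 cells. Oligodendrocyte markers, with Mog at 0 in both knockout groups, reached 2433, 11090, 13690 and 11150 CPM in KO D1, KO D2, WT D1 and WT D2 cells. Endothelial markers had medians under 1 CPM in each group, and reached 65.3, 1.085, 15.0 and 740 CPM in KO D1, KO D2, WT D1 and WT D2 cells. The part of other cells' RNA in the differences below was not tested. The labels do not say which animal each cell came from, so each group is 1 sample. No p-value was computed, and each ± is the SD between cells.

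The adhesion genes spanned a wide range of levels and were patchy from cell to cell. Per kilobase of merged exon, the mean over the 54 cells was highest for Cadm1, a SynCAM protein, at 56.4 CPM per kb. It was followed by Lrrtm1 (27.9 CPM per kb), Nrxn3 (27.5 CPM per kb), Nrcam (24.1 CPM per kb) and Cntn4 (23.7 CPM per kb). Slitrk1 (1.5 CPM per kb) and Slitrk2 (0.999 CPM per kb) were lowest. For each of these 7 genes the SD between cells exceeded the mean: Cadm1 had 589 ± 657 CPM and Cntn4 201 ± 618 CPM (SD, n = 54), with a median of 0.670 CPM for Cntn4. Whether these neighbouring levels differ was not tested. Nfasc, which anchors the initial segment and nodes, had a read in 53 of 54 cells, Slitrk2 in 52, Nrxn2 in 51 and Nrxn3 in 49. Il1rapl2 had a read in 9, the fewest of the 39.

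**Figure D1:**
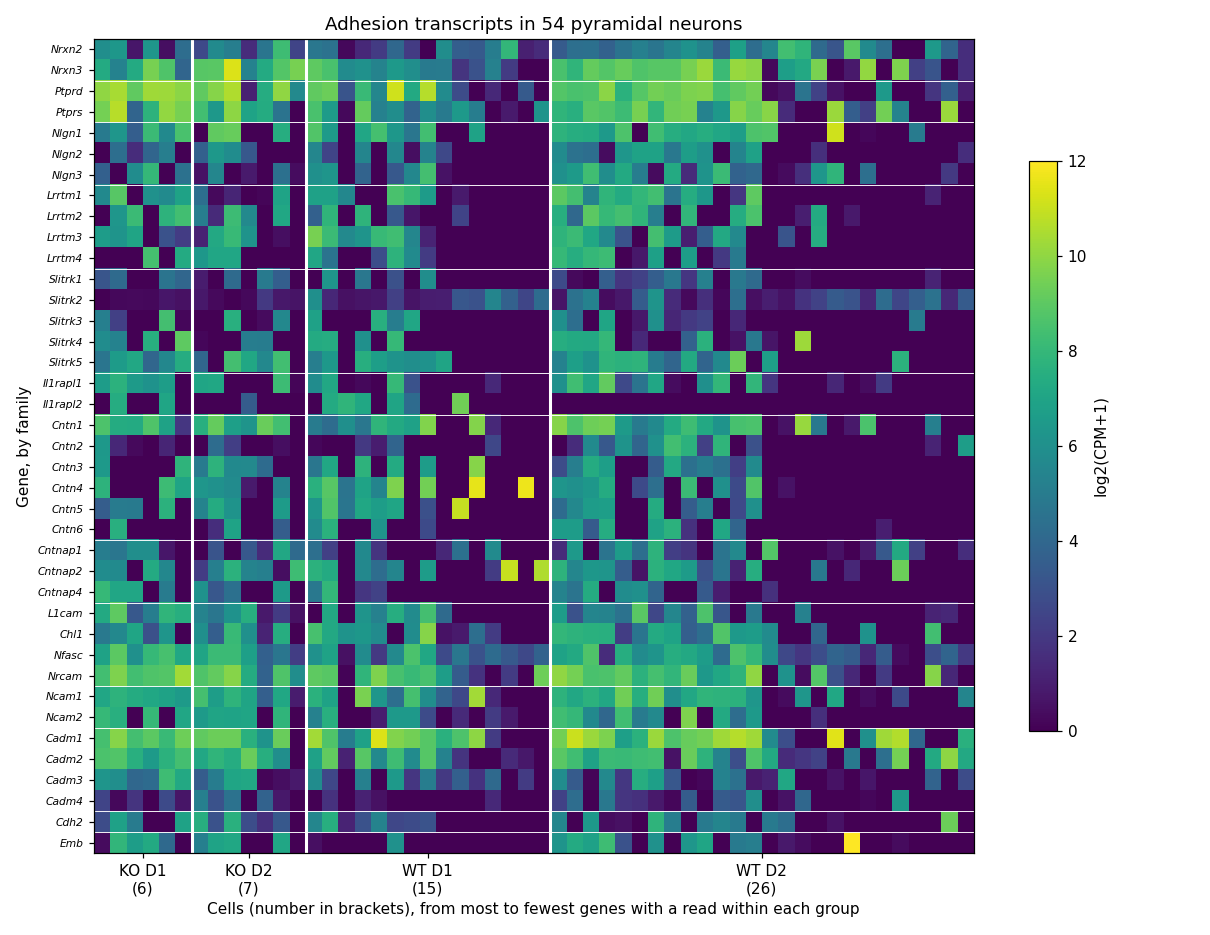
Level of each of the 39 adhesion genes (down the page, by family) in each of 54 cells (across), as log2(CPM+1) from 0 (dark) to 12 (yellow). Cells run from most to fewest genes with a read within each group. The right-hand cells of the WT groups, which are gene-poor, are dark for most members, with isolated bright values, and the Il1rapl2 line is dark in all 26 WT D2 cells.

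How many members a cell showed followed how many genes it showed. KO D1 cells had a read in 26 to 35 members (median 30), KO D2 cells in 13 to 34 (median 33), WT D1 cells in 6 to 36 (median 18) and WT D2 cells in 6 to 37 (median 24). The cells were divided at 4000 genes, and the relation is given within each set. Within the 34 gene-rich cells the number of members and of all genes with a read correlated with a Pearson r of 0.682 and a Spearman rho of 0.687, and within the 20 gene-poor cells with 0.766 and 0.785; both counts of a cell come from the same library. Gene-rich cells showed a median of 32.5 members and gene-poor cells 13.5. The counts of each comparison, and most differences, are therefore given over all cells and again over gene-rich cells.

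**Figure D2:**
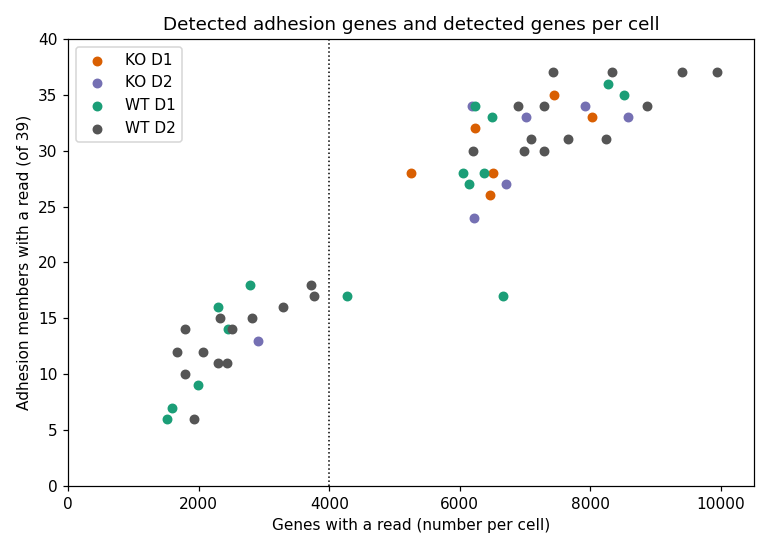
Number of adhesion members with a read (vertical, of 39) against the number of all genes with a read (horizontal), 1 point a cell, coloured by group; the dotted line marks 4000 genes. Cells left of the line show 6 to 18 members, and 1 of 13 knockout cells lies there.

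A gene-poor cell could still hold the highest value of a gene. For 16 of the 39 members the highest of the 54 cells was gene-poor, and 16 of 40 member values above 1000 CPM were in gene-poor cells. WT D2 cell 23, with a read in 2430 genes, held 4759 CPM of Emb, which was 70.3% of Emb's sum over all cells. Cntn4 reached 3354 CPM in WT D1 cell 14 and 3040 CPM in WT D1 cell 3. Cntn5 reached 1940 CPM in WT D1 cell 5, where it made up 48% of the sum. Cntnap2 reached 2057 CPM in WT D1 cell 9. In all of these, a single library carries much of a group's mean CPM. The difference of mean log2(CPM+1), in which a single high value weighs less, is used as the main measure below. Differences of genes with few reads are understated by it. Cells at 0 in only one group widen it well past the log2 ratio of mean CPM. A member is called higher or lower at a difference of at least 1.

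In wild-type mice, D1 and D2 cells differed most in Il1rapl2, Cntn4 and Emb. Il1rapl2, Cntn4 and Cntn5 were higher in WT D1 cells, and 10 of the 39 members were lower, among them 3 of the 4 presynaptic genes. The same calls over all 11059 measured genes were 9.21% higher and 13.2% lower. The members' median difference was -0.35, beside -0.14 over all genes. Over gene-rich cells, 3 members were higher and 21 lower, with a median of -1.09 beside -0.50 over all genes, where 11.3% of genes were higher and 34.6% lower. Without WT D1 cell 1, 5, 10, 14 or 15 or WT D2 cell 13, 5 members were higher over all cells. Relative to the median of all genes, 3 members were higher and 9 lower by at least 1, beside 12% and 10.2% of genes.

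Il1rapl2, an X-linked relative of the synapse-forming receptor Il1rapl1 (chrX:137570608-138846946, plus strand, GRCm38), was the member furthest apart. It had 17.4, 129, 143, 161, 234 and 681 CPM in 6 of 15 WT D1 cells and 0 CPM in the other 9, against 0 CPM in all 26 WT D2 cells. WT D1 cells with a read were a minority, and each of those 6 lies above every WT D2 cell. The mean was 91.0 ± 181 CPM in WT D1 cells (n = 15), and the difference of mean log2(CPM+1) was 2.87, or 3.73 over gene-rich cells. The exact 95% interval of the share of cells with a read was 16.3% to 67.7% in WT D1 cells and 0% to 13.2% in WT D2 cells. Set against a floor of 3 counts over the WT D2 group, the summed level was at least 2920-fold higher in WT D1 cells. Of the 5091 Il1rapl2 counts in WT D1 cells, 2494 came from 1 cell. The intervals, here and for Emb below, treat the cells of a group as independent, although the labels name no animal. They are no test between the kinds. The floor covers the counting error of reads only, and neither covers differences between animals. At the 4 ages with both kinds the difference was 3.72 (29 days), 2.39 (30 days), 2.45 (31 days) and 2.10 (34 days), which rested on 2, 1, 1 and 1 cells with a read. With 0 CPM in every WT D2 cell the difference could not fall below 0 at any age, so the shared sign is no further evidence. Without WT D1 cell 5, a gene-poor cell with the highest value, the difference over all ages was 2.40. In the knockout, Il1rapl2 was read in 2 of 6 KO D1 cells (131 and 172 CPM) and in 1 of 7 KO D2 cells (10.3 CPM). The difference between KO D1 and KO D2 cells was 1.91, and it was 0.91 without KO D1 cell 4 and 0.99 without KO D1 cell 1.

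The 2 Il1rapl receptors went opposite ways between the wild-type kinds. Il1rapl1 was lower in WT D1 cells, with a read in 6 of 15 (median 0 CPM, highest 258 CPM), against 15 of 26 WT D2 cells (median 0.904 CPM, highest 559 CPM), and differed by -1.09, or -2.47 over gene-rich cells. The groups overlapped over nearly their whole range, and leaving out any of 18 single cells put the difference at less than 1 in size, the nearest to 0 being -0.83 without WT D2 cell 4. Of the 9 cells with a read of Il1rapl2, 6 also had a read of Il1rapl1, and all 9 had a read of Ptprd, the presynaptic phosphatase that Il1rapl1 binds; Ptprd was read in 47 of the 54 cells.

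Windows before the RefSeq starts of Il1rapl2 and Emb are shown because these genes had the largest differences in either direction between the WT kinds, and that of Il1rapl1 because it is the relative of Il1rapl2. Each is the 250 bases before the RefSeq start on the GRCm38.p6 build, read 5′ to 3′ on the gene's own strand, with GC boxes (GGGCGG on the shown strand or CCGCCC for the other strand) in capitals. Il1rapl2 lies at chrX:137570504-137570753 on the plus strand, Il1rapl1 at chrX:88115949-88116198 on the minus strand and Emb at chr13:117220323-117220572 on the plus strand. The RefSeq and GENCODE starts differ: the whole Emb window and the 3′ part of the Il1rapl2 window lie inside the GENCODE gene intervals.
Il1rapl2: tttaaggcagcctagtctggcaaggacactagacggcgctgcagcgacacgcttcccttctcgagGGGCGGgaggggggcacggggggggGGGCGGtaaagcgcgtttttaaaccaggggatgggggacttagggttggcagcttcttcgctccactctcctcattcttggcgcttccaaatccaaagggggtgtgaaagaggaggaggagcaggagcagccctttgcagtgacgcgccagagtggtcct
Il1rapl1: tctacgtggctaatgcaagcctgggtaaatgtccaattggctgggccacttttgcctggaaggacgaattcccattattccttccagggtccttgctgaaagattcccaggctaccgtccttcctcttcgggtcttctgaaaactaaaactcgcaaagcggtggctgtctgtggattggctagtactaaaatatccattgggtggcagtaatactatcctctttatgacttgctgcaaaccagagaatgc
Emb: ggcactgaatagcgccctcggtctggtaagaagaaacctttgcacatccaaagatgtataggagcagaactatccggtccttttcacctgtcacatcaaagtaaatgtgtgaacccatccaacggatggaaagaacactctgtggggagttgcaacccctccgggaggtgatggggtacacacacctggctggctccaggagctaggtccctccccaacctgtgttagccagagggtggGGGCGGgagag
The Il1rapl2 window held 2 GC boxes and 14 CpG dinucleotides, the Il1rapl1 window 0 GC boxes and 6 CpG, and the Emb window 1 GC box and 6 CpG. None of the 3 held the TATA motif TATAAA or its reverse complement TTTATA, and neither motif overlaps a GC box. Of 32851 promoter windows of this length in the table, 32.7% held a GC box and 12.4% a TATA motif, and the median CpG number was 6. The table had promoters for 29 of the 39 members, with 42 windows in all, of which 15 held a GC box. A match of letters is a description of the window, and no binding was measured.

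Among the axonal members, Cntn4, a GPI-anchored contactin (chr6:105677660-106699310, plus strand), was higher in WT D1 cells. It had 0 to 3354 CPM (median 41.9 CPM) in WT D1 cells, with a read in 9 of 15, and 0 to 427 CPM (median 0 CPM) in WT D2 cells, with a read in 11 of 26. The ranges overlapped, and 6 of 15 WT D1 cells had no read. The means were 584 ± 1096 CPM in WT D1 and 45.9 ± 101 CPM in WT D2 cells, and the difference was 2.78. At the 4 shared ages it was 1.53, 0.78, 5.5 and 5.86 (29, 30, 31 and 34 days). The median over all genes was -0.86, -0.00, 1.35 and 0.00 at these ages. No WT D2 cell of 31 or 34 days had a read, so the difference could not fall below 0 at those ages. At 30 and 34 days it rested on 1 WT D1 cell with a read each. Over gene-rich cells, which leave out the 2 highest WT D1 cells, the difference was 1.33. Cntn5 (chr9:9660891-10904775, minus strand) had 0 to 1940 CPM (median 6.70 CPM) in WT D1 cells, against 0 to 168 CPM (median 0 CPM) in WT D2 cells. It was read in 8 of 15 WT D1 and 9 of 26 WT D2 cells and differed by 1.78, or by 1.26 without WT D1 cell 5. Its exons share 290 bases (6.4%) with Gm32710 on the other strand.

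The contactin family did not go one way. Cntn2, which pairs with Cntnap2 beside the nodes of myelinated axons, was lower in WT D1 cells, at 0 to 13.7 CPM (median 0 CPM) with a read in 5 of 15, against 0 to 324 CPM (median 0.647 CPM) in WT D2 cells with a read in 13 of 26. Its difference was -1.82, and -3.52 over gene-rich cells. It was below 0 at each shared age, but no WT D1 cell of 34 days had a read, so the sign there was fixed. Of the other contactins, Cntn3 differed by 0.80, Cntn6 by -0.53 and Cntn1 by -0.84, and Cntn1, the partner of Cntnap1 at paranodes, was below 0 at each shared age. Summed over the family, contactins had 1059 ± 1416 CPM in WT D1 cells and 391 ± 439 CPM in WT D2 cells.

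Emb encodes embigin, a relative of basigin that accompanies monocarboxylate transporters to the membrane (chr13:117208536-117274415, plus strand). It was read in 2 of 15 WT D1 cells, at 0.426 CPM in cell 2 and 65.2 CPM in cell 7, against 14 of 26 WT D2 cells, at up to 4759 CPM in cell 23 and up to 309 CPM in the others. The exact 95% interval of the share was 1.66% to 40.5% in WT D1 and 33.4% to 73.4% in WT D2 cells. The difference was -2.45, and -2.07 without WT D2 cell 23. It was below 0 at each shared age (-1.86, -1.85, -2.18 and -1.52 at 29, 30, 31 and 34 days), where the median over all genes was -0.86, -0.00, 1.35 and 0.00. No WT D1 cell of 30 or 34 days had a read, so the difference could not rise above 0 at those ages. At 29 and 31 days 1 WT D1 cell each had a read. Over gene-rich cells it was -3.98, from 7.29 ± 21.7 CPM in 9 WT D1 cells and 77 ± 87.4 CPM in 13 WT D2 cells. In the knockout, Emb was read in 5 of 6 KO D1 cells and 4 of 7 KO D2 cells, and these differed by 0.61. Emb shares 686 of 6906 exon bases (9.9%) with Gm17509 on the other strand, and reads of the 2 strands cannot be told apart with this kit.

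All 4 presynaptic members were below 0 in WT D1 minus WT D2 cells, as were 6304 of 11059 measured genes. Nrxn3, a neurexin, had 0 to 520 CPM (median 38.3 CPM) in WT D1 cells, against 0 to 1162 CPM (median 396 CPM) in WT D2 cells, and differed by -1.90. Among gene-rich cells, Nrxn3 had 28.4 to 520 CPM (median 60.7 CPM) in 9 WT D1 cells and 228 to 1162 CPM (median 478 CPM) in 13 WT D2 cells, a difference of -2.74. Most gene-rich WT D1 cells lay below the lowest gene-rich WT D2 cell. Its difference was below 0 at 29, 30 and 34 days and above 0 (1.42) at 31 days, where the median over all genes was 1.35. Ptprs, a phosphatase that binds Slitrk proteins and heparan sulfate, differed by -1.59, Nrxn2 by -1.52 and Ptprd by -0.17.

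The 14 postsynaptic members had a median difference of -0.23. Over all measured genes the median was -0.14, with 9.21% higher and 13.2% lower. Of the 14 members, 1 was higher (Il1rapl2) and 3 lower: Lrrtm2 (-1.48), a neurexin ligand of excitatory synapses, Nlgn3 (-1.32) and Il1rapl1. The exons of Nlgn3 share 3823 of 9271 bases (41.2%) with Gm21986 on the same strand, so its counts are uncertain. The other calls were Cadm2 (-1.44) and Cadm4 (-1.34), both SynCAM proteins. Of the 60 other synaptic adhesion genes chosen for comparison, 55 were measured, of which 4 were higher and 13 lower in WT D1 cells. Sdk2, a sidekick protein of layer-specific connections in the retina, was the lowest of these at -2.39, and Tenm4, a teneurin, the highest at 1.41. Over gene-rich cells, 1 of the 55 was higher and 32 lower, beside 11.3% and 34.6% of all measured genes. Microglial markers moved with the kinds: 6 of 11 measured were higher and 1 lower in WT D1 cells, and of 6 oligodendrocyte markers 2 were lower. Over gene-rich cells, 5 microglial markers were higher and 0 lower, and 1 oligodendrocyte marker was higher and 1 lower.

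**Figure D3:**
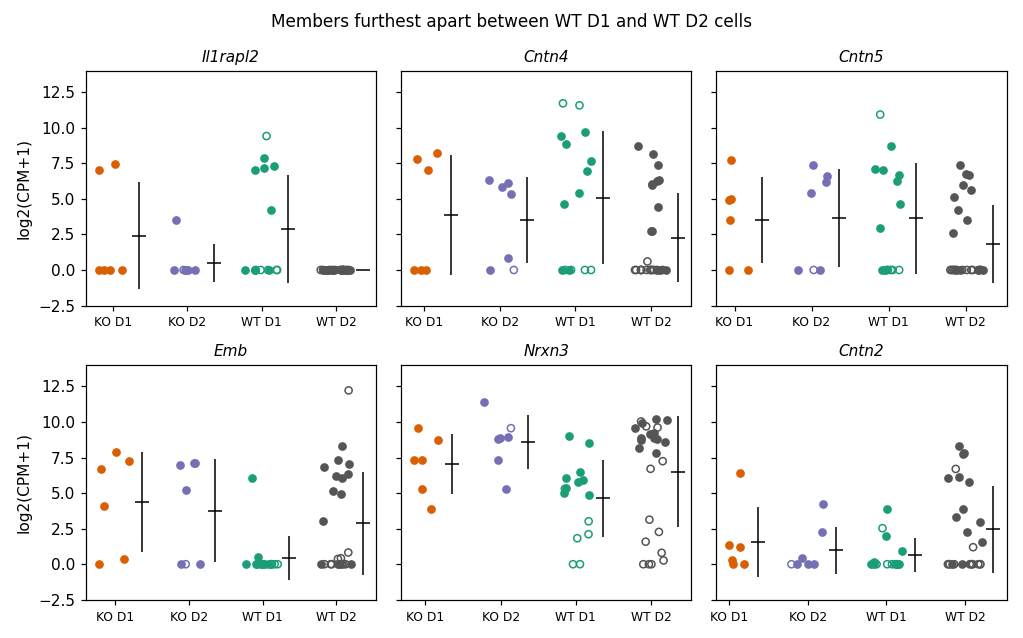
Level of 6 members in each cell, as log2(CPM+1), by group; filled points are gene-rich and open points gene-poor cells, and the bar beside each group gives mean and SD. Il1rapl2 is at 0 in all 26 WT D2 cells, Emb is above 0 in 2 of 15 WT D1 cells, and the highest Cntn4, Cntn5 and Emb values are open points.

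In D1 cells, the knockout went with higher levels of most adhesion genes. Of 38 measured members (Cadm4 was below the filter), 24 were higher and 2 lower in KO D1 than in WT D1 cells, beside 49.6% and 8.02% of all 10792 measured genes. The members' median was 2.35 and that of all genes 0.98. Without KO D1 cell 3 or 6 or WT D1 cell 3, 7, 8, 12 or 14, 1 member was lower. All 6 KO D1 cells and 9 of 15 WT D1 cells were gene-rich. Over these, 17 members were higher and 8 lower, with a median of 0.73 beside 0.14, which compares with 29.4% and 22.8% of all genes. Relative to the median of all genes, 21 members were higher and 6 lower by at least 1 over all cells, beside 27.9% and 25% of genes.

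The 4 presynaptic members were all above 0, as were 8063 of the 10792 measured genes. Ptprd (chr4:75941238-78211961, minus strand) had 541 to 1394 CPM (median 1109 CPM) in the 6 KO D1 cells, against 0 to 2255 CPM (median 44.2 CPM) in the 15 WT D1 cells. Every KO D1 cell was high, and WT D1 cells covered the whole range from none to above the highest KO D1 cell. The means were 1062 ± 302 CPM in KO D1 and 372 ± 674 CPM in WT D1 cells, the difference was 4.82, and it was 2.22 over gene-rich cells. Ptprs had 13.7 to 1699 CPM (median 733 CPM) in KO D1 cells, against 0 to 580 CPM (median 37.3 CPM) in WT D1 cells, a difference of 3.98 and of 2.99 over gene-rich cells. Nrxn3 differed by 2.41 and Nrxn2 by 0.83, and over gene-rich cells by 0.69 and 1.23.

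Among postsynaptic members, 8 of 14 were higher and 1 lower, beside 49.6% and 8.02% of all measured genes. Over gene-rich cells 3 were higher and 3 lower, beside 29.4% and 22.8%. Il1rapl1 had 0 to 207 CPM (median 95.1 CPM) with a read in 5 of 6 KO D1 cells, and its difference from WT D1 cells was 3.89, or 2.9 over gene-rich cells. Lrrtm2 (3.38), Slitrk4 (2.70), Lrrtm1 (2.67) and Slitrk5 (2.50) followed; over gene-rich cells Lrrtm2 was at 2.51, Slitrk4 at 1.42, Lrrtm1 at 0.84 and Slitrk5 at 0.24. The member called lower was Slitrk2 (chrX:66649318-66661393, plus strand), at 0 to 0.681 CPM (median 0.218 CPM) in KO D1 cells and 0.469 to 61.2 CPM (median 3.83 CPM) in WT D1 cells. The groups overlapped at their ends, and the difference was -2.08, or -1.22 over gene-rich cells. These levels rest on few reads: 0 to 3 counts per KO D1 cell (median 1.5) and 2 to 431 per WT D1 cell (median 6).

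Axonal members went both ways. All 4 members of the L1 family, like 8063 of 10792 measured genes, were above 0, with L1cam at 3.71, Nrcam at 3.44, Nfasc at 3.13 and Chl1 at 0.63. Over gene-rich cells 3 were higher and Chl1 was lower (-1.12), where 29.4% of all measured genes were higher and 22.8% lower. The family summed to 1089 ± 569 CPM in KO D1 and 485 ± 513 CPM in WT D1 cells. Of 6 contactins, Cntn1 was higher (2.62, and 1.07 over gene-rich cells) and Cntn4 lower (-1.23). Of the others, Cntn2 was at 0.91, Cntn3 at -0.51, Cntn6 at -0.23 and Cntn5 at -0.11. Over gene-rich cells 4 of the 6 were lower: Cntn4 (-2.01), Cntn3 (-1.35), Cntn5 (-1.31) and Cntn6 (-1.22). Cntn2 was at 0.77 there. Cntn4 had 0 to 294 CPM (median 64.8 CPM) in KO D1 cells, against 0 to 3354 CPM (median 41.9 CPM) in WT D1 cells, so its medians and means were ordered oppositely. It moved to -0.46 without KO D1 cell 3, 4 or 6, to between -0.75 and -0.96 without WT D1 cell 3, 7, 8, 12 or 14, and to between -1.87 and -2.10 without KO D1 cell 1, 2 or 5. Cntn3 had 0 to 223 CPM (median 0 CPM) with a read in 2 of 6 KO D1 cells, against 0 to 908 CPM (median 0 CPM) with a read in 6 of 15 WT D1 cells.

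All 7 measured members of the NCAM, SynCAM and cadherin families and Emb were higher, as were 49.6% of all measured genes. Over gene-rich cells 5 of the 7 were higher, beside 29.4% of all measured genes, and Cadm1 was at 0.20 and Cdh2 at 0.15. Emb had 0 to 240 CPM (median 58.2 CPM) in KO D1 cells, with a read in 5 of 6, against 2 of 15 WT D1 cells. Its difference was 3.94, and 3.65 over gene-rich cells. Cadm2 (3.67), Cadm3 (3.28), Ncam2 (2.88), Ncam1 (2.67), Cadm1 (2.28) and Cdh2 (1.53, or 0.88 and 0.86 without KO D1 cell 4 and 5) were the others. For some of these the difference lay in how many cells had a read. Cadm1 averaged 506 ± 242 CPM in KO D1 and 538 ± 704 CPM in WT D1 cells, with a read in 6 of 6 and 12 of 15.

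The other synaptic adhesion genes showed 37 higher and 0 lower of 54 measured, beside 49.6% and 8.02% of all measured genes. Cdh10, a cadherin, led them at 4.47. Over gene-rich cells, 20 of the 54 were higher and 4 lower, beside 29.4% and 22.8%. In the same comparison, 1 of 11 measured microglial markers was higher and 4 were lower, and of 9 astrocyte markers 1 was higher and 4 lower. Over gene-rich cells, 0 microglial markers were higher and 8 lower, and 1 astrocyte marker was higher and 3 lower. Age could be matched only in part. Among the 6 KO D1 and 3 WT D1 cells of 31 and 32 days, 17 members were higher and 8 lower, beside 37.1% and 25.4% of 11634 genes. At those ages Ptprd differed by 3.87, Emb by 4.21, Ptprs by 1.47, Slitrk2 by -3.50 and Cntn4 by -1.67, whereas Nrcam was at -0.05.

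In D2 cells the members lay closer to the background, and the counts depended on whether gene-poor cells were included. Of 38 measured members (Il1rapl2 was below the filter), 16 were higher and 4 lower in KO D2 than in WT D2 cells, beside 36.4% and 6.91% of 11222 genes, with medians of 0.79 and 0.56. Without KO D2 cell 4 or cell 1, 9 and 10 members were higher. Over gene-rich cells, 6 KO D2 against 13 WT D2, only Cdh2 was higher and 14 members were lower, beside 14.6% and 31.9% of all genes, and the medians were -0.65 and -0.39. Relative to the median of all genes, 8 members were higher and 6 lower over all cells, beside 20.9% and 19.1% of genes.

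Ptprd had 1.14 to 1535 CPM (median 544 CPM) in KO D2 cells, against 0 to 973 CPM (median 145 CPM) in WT D2 cells. Its difference was 2.33 over all cells and -1.02 over gene-rich cells. Nrcam, a nodal member of the L1 family, had 12.5 to 910 CPM (median 413 CPM) in KO D2 and 0 to 1023 CPM (median 175 CPM) in WT D2 cells, at 2.11 and -0.59. Ncam2 had 0 to 230 CPM (median 124 CPM) in KO D2 and 0 to 811 CPM (median 0 CPM) in WT D2 cells, at 2.20 and 0.31. The ranges of all 3 overlapped widely, and Ptprd and Nrcam had opposite signs in the 2 sets of cells.

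The 4 members called lower in KO D2 cells were 3 postsynaptic genes and Cntn2, and all 4 were lower over gene-rich cells too. Nlgn3, an X-linked neuroligin (chrX:101299168-101325963, plus strand), had 0 to 45 CPM (median 0.525 CPM) in KO D2 cells, against 0 to 316 CPM (median 14.3 CPM) in WT D2 cells. Its difference was -1.88 over all cells and -3.52 over gene-rich cells. Lrrtm1, a neurexin ligand of excitatory synapses (chr6:77242689-77257791, plus strand), had 0 to 124 CPM (median 0.241 CPM) in KO D2 cells, against 0 to 517 CPM (median 0.647 CPM) in WT D2 cells. Of 7 KO D2 cells, 2 were above 2 CPM, cell 7 at 124 CPM and cell 1 at 19.1 CPM. The difference was -1.40, or -2.25 without KO D2 cell 7, and -4.26 over gene-rich cells. All 3 neuroligins were below -1 over gene-rich cells, with Nlgn1 at -2.68 and Nlgn2 at -1.80. Slitrk2 was at -1.75 and -1.61, on 0 to 23 counts per KO D2 cell (median 2) and 1 to 291 per WT D2 cell (median 9.5). Cntn2 was at -1.47 and -3.15, with a read in 3 of 7 KO D2 and 13 of 26 WT D2 cells.

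Among the 7 KO D2 and 5 WT D2 cells of 31 and 32 days, 18 members were higher and 3 lower, beside 49.7% and 10.7% of 10482 genes. Nlgn3 was at -0.71 there, Lrrtm1 at -1.22, Slitrk2 at -1.97 and Cntn2 at -0.37. Over all cells, 19 of the other synaptic adhesion genes were higher and 4 lower of 56 measured, beside 36.4% and 6.91% of all measured genes. Over gene-rich cells this turned round, with 2 higher and 24 lower, beside 14.6% and 31.9% of all measured genes. Igsf9b, an adhesion protein of inhibitory synapses, was the lowest of them over all cells at -2.19, with a read in 0 of 7 KO D2 and 13 of 26 WT D2 cells. Of 6 measured oligodendrocyte markers 3 were higher and 1 lower, and of 11 microglial markers 2 were higher and 2 lower. Over gene-rich cells, 1 oligodendrocyte marker was higher and 2 lower, and 1 microglial marker was higher and 3 lower.

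**Figure D4:**
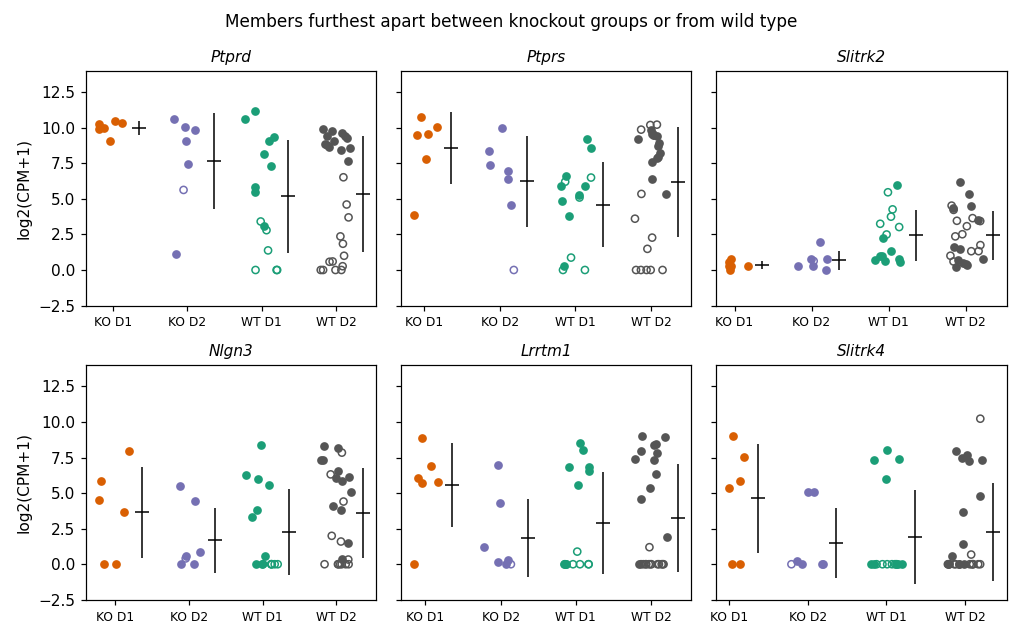
Level of 6 members in each cell, as log2(CPM+1), by group; filled points are gene-rich and open points gene-poor cells, and the bar beside each group gives mean and SD. All 6 KO D1 cells lie between 541 and 1394 CPM of Ptprd, and the 13 knockout cells have at most 2.98 CPM of Slitrk2.

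Within the knockout, 8 of the 18 members called higher in D1 cells over all cells were postsynaptic. Of 38 measured members (Slitrk2 was below the filter), 18 were higher and 3 lower in KO D1 than in KO D2 cells, beside 32.9% and 21% of 10990 genes, with medians of 0.92 and 0.29. Over gene-rich cells the counts were 14 and 4, beside 27.6% and 26.1%. Relative to the median of all genes, 15 were higher and 4 lower, beside 26.5% and 26.8%. By role, 8 of 13 postsynaptic, 2 of 4 presynaptic, 4 of 13 axonal and 4 of the 8 NCAM, SynCAM, cadherin and Emb members were higher. Over gene-rich cells 6, 2, 5 and 1 were higher, in the same order. Whether the roles differ was not tested. Of 5 measured oligodendrocyte markers 3 were lower in KO D1 cells, as were 3 of 4 interneuron markers. Over gene-rich cells, 1 oligodendrocyte marker was higher and 2 lower, and 3 interneuron markers were lower.

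Lrrtm1 had 0 to 473 CPM (median 59.5 CPM) in KO D1 cells, against 0 to 124 CPM (median 0.241 CPM) in KO D2 cells. Of the 6 KO D1 cells, 5 were above 50 CPM, as was 1 of the 7 KO D2 cells, and the difference was 3.70. Slitrk4, an X-linked binder of presynaptic phosphatases, had 0 to 522 CPM (median 47.9 CPM) in KO D1 and 0 to 33.3 CPM (median 0 CPM) in KO D2 cells, a difference of 3.14. L1cam had 8.74 to 527 CPM (median 169 CPM) in KO D1 and 0.436 to 181 CPM (median 25.5 CPM) in KO D2 cells, a difference of 2.79. Each of these was above 2 over gene-rich cells and as each cell was left out. Ptprd differed by 2.32 and by 1.22 without KO D2 cell 2.

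Lower in KO D1 cells were Cntn3 (-1.66), Nrxn3 (-1.57) and Cadm4 (-1.16). Nrxn3 had 14.1 to 748 CPM (median 162 CPM) in KO D1 cells, against 38.9 to 2665 CPM (median 469 CPM) in KO D2 cells, and its difference was -0.94 without KO D1 cell 5. Cntn3 was read in 2 of 6 KO D1 and 5 of 7 KO D2 cells, and was at -1.03 without KO D2 cell 3 and -2.74 without KO D1 cell 5. Cadm4 had 0 to 5.45 CPM (median 1.57 CPM) in KO D1 cells, against 0 to 35.2 CPM (median 7.22 CPM) in KO D2 cells. It was between -0.70 and -0.94 without KO D2 cell 1, 4 or 6 or KO D1 cell 3 or 4. Nrxn3 was lower in D1 cells of both genotypes. Emb and Cntn4, which differed by -2.45 and 2.78 between WT D1 and WT D2 cells, differed by 0.61 and 0.34 between KO D1 and KO D2 cells. The difference between these differences was not tested.

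**Figure D5:**
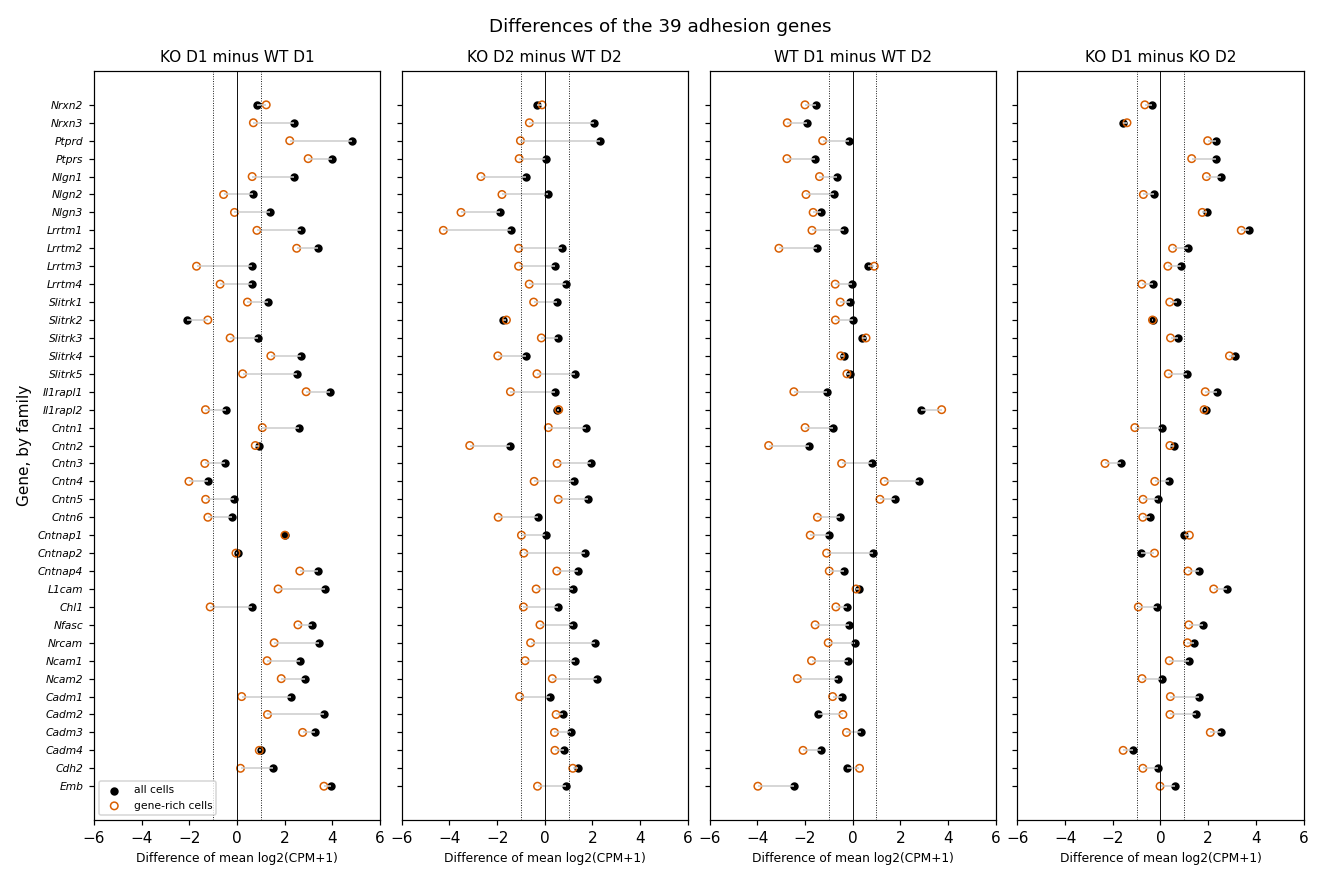
Difference of mean log2(CPM+1) of each of the 39 members (down the page) in the 4 comparisons, over all cells (filled) and over gene-rich cells (open); dotted lines mark -1 and 1. In KO D2 minus WT D2 most open points lie left of the filled ones, 14 of them past -1, whereas Emb keeps its side between the WT kinds. Il1rapl2 does so too, but with no read in any WT D2 cell it could not change side.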

How the data were processed

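Each sample was the cytosol of 1 patched pyramidal neuron, sequenced with the Nextera XT kit, which does not mark strand, per the labels' protocols. The submitters' processing notes name Trimmomatic, STAR and featureCounts and the GRCm38 build, with no version or setting. The main table the authors deposited holds whole-number read counts for 22800 gene symbols, and another holds them for 22880 Ensembl identifiers. A further deposited table gives a normalized signal for 14067 symbols, which equals each cell's counts times 1 factor (0.373 to 51.5); it served as an alternative. Columns that match no sample label (2 in each file) were left out, as was the 1 KO D1 cell labelled as failing quality control.

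Counts were scaled to CPM over each cell's gene total. A difference is that of the mean of log2(CPM+1), with a pseudocount of 1, in 4 comparisons: KO D1 minus WT D1, KO D2 minus WT D2, WT D1 minus WT D2 and KO D1 minus KO D2. The last 2 share their cells with the first 2. Genes count as measured with a mean CPM of 1 or more and reads in 10% or more of the cells of both groups combined. With no animal named, each cell group is 1 sample and no test was made. Exact Clopper-Pearson intervals are at 95% and take cells as independent, and the floor is 3 counts. The adhesion members and all gene lists were chosen with earlier results of these data known. Values by cell are given for Il1rapl2, Cntn4 and Emb and for the 3 members with the largest difference per direction in each comparison, and for the other adhesion genes the 2 largest per direction; Drd1, Drd2 and other members are named beside them after their values were seen. Positions and exon lengths come from GENCODE vM21 (GRCm38) and promoters from RefSeq (GRCm38.p6). Python 3.11.15, numpy 2.4.6, pandas 2.3.3, scipy 1.17.1, matplotlib 3.10.9, R 4.3.3 and edgeR 4.0.16 (TMM factors only) were used; the procedure was tested on simulated data. Alternatives changed the pseudocount, scaling, filter, level measure, depth (250000 reads per cell) and the cells or ages included.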

Additional observations from a re-analysis of the deposited data

Results flagged for a closer look

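Among 71 sets of values of a gene or cell measure in KO D1 or KO D2 cells, 8 held 1 cell far from the others. The cut-off flags about 1 in 20 sets of independent, normally spread values. These sets share their cells and hold many zeros, so the 8 cannot be set against that rate. In KO D1 cells, log2(CPM+1) of Lrrtm1 was lowest at 0 in cell 6, that of Il1rapl1 was lowest at 0 in cell 5, and that of Cntn1 was lowest at 1.90 (2.72 CPM) in cell 5. Cntn2 was highest in KO D1 cell 2 at 6.41 (84.2 CPM). In KO D2 cells, Slitrk2 was highest in cell 6 at 1.99 (2.98 CPM). Cntn1, Cadm1 and Cadm2 were lowest in KO D2 cell 5, each at 0; this is the 1 gene-poor knockout cell, with a read in 2904 genes.

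For 3 members the knockout differences of mean log2(CPM+1) had opposite signs in the 2 kinds, each at least 1 in size. The same count over all genes was not made, so whether 3 is many for this number of genes is not known. The difference between kinds was not tested. Nlgn3 differed by 1.40 in D1 cells (KO D1 minus WT D1) and by -1.88 in D2 cells (KO D2 minus WT D2). The D1 value was 0.54 without KO D1 cell 3, 0.97 without cell 6, 2.13 without cell 1 or 4, and -0.10 over gene-rich cells. Its counts are uncertain because of the exons shared with Gm21986. Lrrtm1 differed by 2.67 in D1 cells and by -1.40 in D2 cells, or -2.25 without KO D2 cell 7. Over gene-rich cells it was 0.84 in D1 cells, under 1 in size, and -4.26 in D2 cells. Cntn4 differed by -1.23 in D1 cells and by 1.21 in D2 cells, where it was between 0.74 and 0.90 without KO D2 cell 1, 3, 4 or 7 and -0.45 over gene-rich cells.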

How the results depend on the processing

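Total depth, the number of genes per cell and the number of knockout cells limit these values; reads are PCR copies, so counts exceed molecules. No paired analysis was possible because the labels name no animal, the cell numbers only follow the order of the samples, and no result comes from a test. Of 80 called member differences, 58 kept their sign under all alternatives run and 57 stayed at least 1 in size as each cell was left out. The 2 deposited count tables gave 0 differing member counts. Of 156 shares of cells with a read, 147 stayed inside their interval after thinning to 250000 reads. The cause of the shifts below was not tested.

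With log2(CPM+10), the members lower in KO D1 minus WT D1 numbered 0 (2 with a pseudocount of 1), those higher and lower in KO D2 minus WT D2 6 and 2 (16 and 4), those lower in WT D1 minus WT D2 4 (10) and those lower in KO D1 minus KO D2 1 (3; 5 with log2(CPM+0.1)). Over gene-rich cells, 8 were lower in KO D1 minus WT D1, 1 higher and 14 lower in KO D2 minus WT D2, and 21 lower in WT D1 minus WT D2. By the log2 ratio of mean CPM, 6 were lower in KO D1 minus WT D1, 4 higher in KO D2 minus WT D2, 6 higher in WT D1 minus WT D2 and 11 higher in KO D1 minus KO D2. By the log2 ratio of summed CPM, 7 were lower in KO D1 minus WT D1, and 0 higher and 13 lower in KO D2 minus WT D2. At 31 and 32 days 8 were lower in KO D1 minus WT D1. Relative to the median of measured genes, an alternative chosen after seeing the data, 6 were lower in KO D1 minus WT D1 and 8 higher in KO D2 minus WT D2. In WT D1 minus WT D2, 8 were higher without cells of 29 days and 5 without 34 days, and 17 lower without 31 days. As each cell was left out, counts of members higher and lower ranged from 24 to 28 and 1 to 3 in KO D1 minus WT D1, from 9 to 24 and 4 to 6 in KO D2 minus WT D2, from 3 to 5 and 9 to 12 in WT D1 minus WT D2, and from 14 to 22 and 2 to 4 in KO D1 minus KO D2.

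Called members that changed sign were as follows. In KO D1 minus WT D1, Nlgn3 was at -0.10 over gene-rich cells and -0.42 at 31 and 32 days, where Slitrk4 was at -0.29, Nrcam at -0.0528 and Cdh2 at -0.75. By the log2 ratios of mean and of summed CPM, Slitrk1 was at -0.0916 and -0.14, Ncam1 at -0.40 and -0.33 and Cadm1 at -0.0877 and -0.31. In KO D2 minus WT D2 over gene-rich cells, Nrxn3 was at -0.65, Ptprd at -1.02, Slitrk5 at -0.33, Cntn4 at -0.45, Cntnap2 at -0.88, L1cam at -0.36, Nfasc at -0.20, Nrcam at -0.59 and Ncam1 at -0.83. By summed CPM there, Nrxn3 was at -0.04, Ptprd at -0.0247, Slitrk5 at -0.27, Cntn1 at -0.28, Cntn4 at -1.30, Cntnap4 at -0.42, L1cam at -0.39, Nfasc at -0.40, Nrcam at -0.31, Ncam1 at -0.57 and Ncam2 at -0.33, and by mean CPM Cntn4 was at -0.41 and L1cam at -0.047. In KO D1 minus KO D2, Nlgn1 was at -0.41 and Slitrk5 at -0.57 by mean CPM, and Cntn3 at 0.37 by summed CPM.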

Other observations

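Several of the other synaptic adhesion genes stood out in more than 1 comparison. Cdh10, a cadherin, averaged 299 ± 163 CPM in KO D1 cells (n = 6) and 89.1 ± 209 CPM in WT D1 cells (n = 15), and 101 ± 150 CPM in KO D2 (n = 7) and 38.9 ± 88.3 CPM in WT D2 cells (n = 26); the differences of mean log2(CPM+1) were 4.47 and 2.76. Cdh8, another cadherin, was lower in D1 cells of both genotypes, with a read in 1 of 6 KO D1 and 4 of 7 KO D2 cells and in 4 of 15 WT D1 and 14 of 26 WT D2 cells, at differences of -2.52 and -2.32. Sdk2 was read in 6 of 6 KO D1 and 4 of 15 WT D1 cells, a difference of 4.29. Flrt2, a ligand of latrophilins, was read in 7 of 7 KO D2 and 14 of 26 WT D2 cells, a difference of 3.29. Lrfn5 and Lrfn1, postsynaptic SALM proteins, were higher in KO D1 than in KO D2 cells by 3.92 each; Lrfn1 had 240 ± 435 CPM in KO D1 and 8.60 ± 11.5 CPM in KO D2 cells.

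Slitrk2 was the only member with a read in all 20 gene-poor cells, at 1 to 27 counts (median 10), beside 0 to 431 counts (median 3) in the 34 gene-rich cells. Lrrtm4 was read in none of the gene-poor cells, and 27 members in under 10 of them. The KO D1 cell that failed quality control had a read in 995 genes.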
